A study of Mus musculus with 10 samples.

Results

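A set of 8 glucocorticoid-pathway genes was described in RNA from whole mouse lung: the glucocorticoid receptor gene Nr3c1 and 7 genes known to be induced by that receptor (Fkbp5, Tsc22d3, Sgk1, Errfi1, Klf9, Zbtb16 and Cebpd). They were taken by symbol from a table of 54532 genes, and all 8 were among the 17139 genes with enough reads to be tested. All 10 libraries came from the lungs of mice labelled WT, and no strain, age, dose or time point is given in the sources used here. There were 4 libraries from lungs given recombinant TSLP and then LPS (LPS+TSLP), 3 from lungs given LPS alone (LPS), and 3 from lungs given vehicle (Vehicle). LPS, lipopolysaccharide, is a bacterial outer-membrane component sensed by the receptor TLR4, and TSLP, thymic stromal lymphopoietin, is a cytokine of barrier epithelium.

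Glucocorticoids such as corticosterone, the main one in mice, enter cells and bind a receptor that waits in the cytoplasm in a complex with the chaperone HSP90 and immunophilins. The bound receptor moves to the nucleus, attaches to glucocorticoid response elements and switches on genes that limit inflammation, alter metabolism and restrain the receptor itself. In the lung the receptor is needed for epithelial maturation before birth, and its drugs are used against inflammatory airway disease. Several of these genes also answer to inflammatory signals or to other hormones, so a rise in any of them is not specific to the receptor.

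Levels are CPM, counts per 1000000 reads after TMM scaling, and total counts ran from 16175172 to 18374461 per library. A gene was called at an adjusted p under 0.05, where edgeR's quasi-likelihood test was adjusted by Benjamini and Hochberg's method over all genes tested. Each log2 fold change is given with its standard error (SE) or its 95% interval. The lowest count of any of the 8 genes in any library was 193 (Zbtb16 in Vehicle replicate 1). Whether each library is a different animal is not stated in the labels, so p-values measure the spread between these samples, which may be technical. Because the tissue was whole lung, a change in the number of cells of a type and a change in RNA per cell cannot be told apart.

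The defining markers of lung epithelium were present in every library. Alveolar type 2 markers (7 genes) summed to 3750 to 23500 CPM in LPS+TSLP, 6640 to 14500 CPM in LPS and 17400 to 26900 CPM in Vehicle. Some libraries stood apart. LPS+TSLP replicate 1 had 13.1% of its counts in mitochondrial genes, where the other 9 had 1.11% to 6.5%, and it was lowest in the summed markers of alveolar type 2 cells (3750 CPM), alveolar type 1 cells (785 CPM) and neutrophils (117 CPM). Its 5 airway markers summed to 22400 CPM, below only LPS replicate 1 (24700 CPM). Of these markers Scgb3a2 (1120 CPM) and Foxj1 (292 CPM) were at their highest there, and the rest were not. Xist, the RNA that silences an X chromosome, was at 190 CPM in LPS replicate 1 and at most 0.455 CPM elsewhere. The Y-linked gene Ddx3y was at 0 CPM in that library, at 57.7 to 96.1 CPM in the other treated libraries and at 6.15 to 11.9 CPM in Vehicle, so it also separated Vehicle from those libraries, and its part in the results was not tested. Vehicle replicate 3 had 1080 CPM of the 8 neutrophil markers together, against 371 and 554 CPM in Vehicle replicates 1 and 2.

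Among the 8 genes, 3 rose in LPS against Vehicle (Fkbp5, Tsc22d3 and Cebpd), none fell and 5 did not pass. Over all genes tested, 14.2% rose and 10.7% fell in that comparison, counts that dropped to 1021 and 640 genes without Vehicle replicate 1 and to 1012 and 824 without Vehicle replicate 2, against 2437 and 1836 with all libraries. The median log2 fold change of the 8 was 0.91, against 0.01 over all genes tested, and all 8 values were above 0. Tsc22d3 alone of the 8 rose in LPS+TSLP against Vehicle, none fell and 7 did not pass, where 8.82% of all genes tested rose and 5.35% fell. The median of the 8 was 0.84, against 0.03 over all genes. Between LPS+TSLP and LPS none of the 8 was called, and edgeR called 0.0% of all genes tested. These comparisons share libraries, so their values are not independent of each other. Summed markers of other cell types also separated both treated groups from Vehicle. Fibroblast markers summed to 2070 to 3950 CPM in LPS+TSLP, 1270 to 2670 CPM in LPS and 4480 to 6520 CPM in Vehicle, and 5 of 8 fell in LPS against Vehicle. Endothelial markers summed to 2770 to 3860 CPM in LPS+TSLP, 3240 to 3590 CPM in LPS and 4080 to 5230 CPM in Vehicle. Of these 8 markers 4 fell in LPS against Vehicle and none rose, but Egfl7 (log2 0.60), Cldn5 (0.40) and Emcn (0.23) had values above 0. In Egfl7 every treated library lay above every Vehicle library. Adipocyte markers summed to 8.75 to 14.8 CPM in LPS+TSLP, 9.11 to 11.8 CPM in LPS and 26.5 to 77.9 CPM in Vehicle, with Adipoq, Plin1 and Lep at 0 in at least 1 library. The part of these cells in the values of the 8 genes was not tested.

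**Figure D1:**
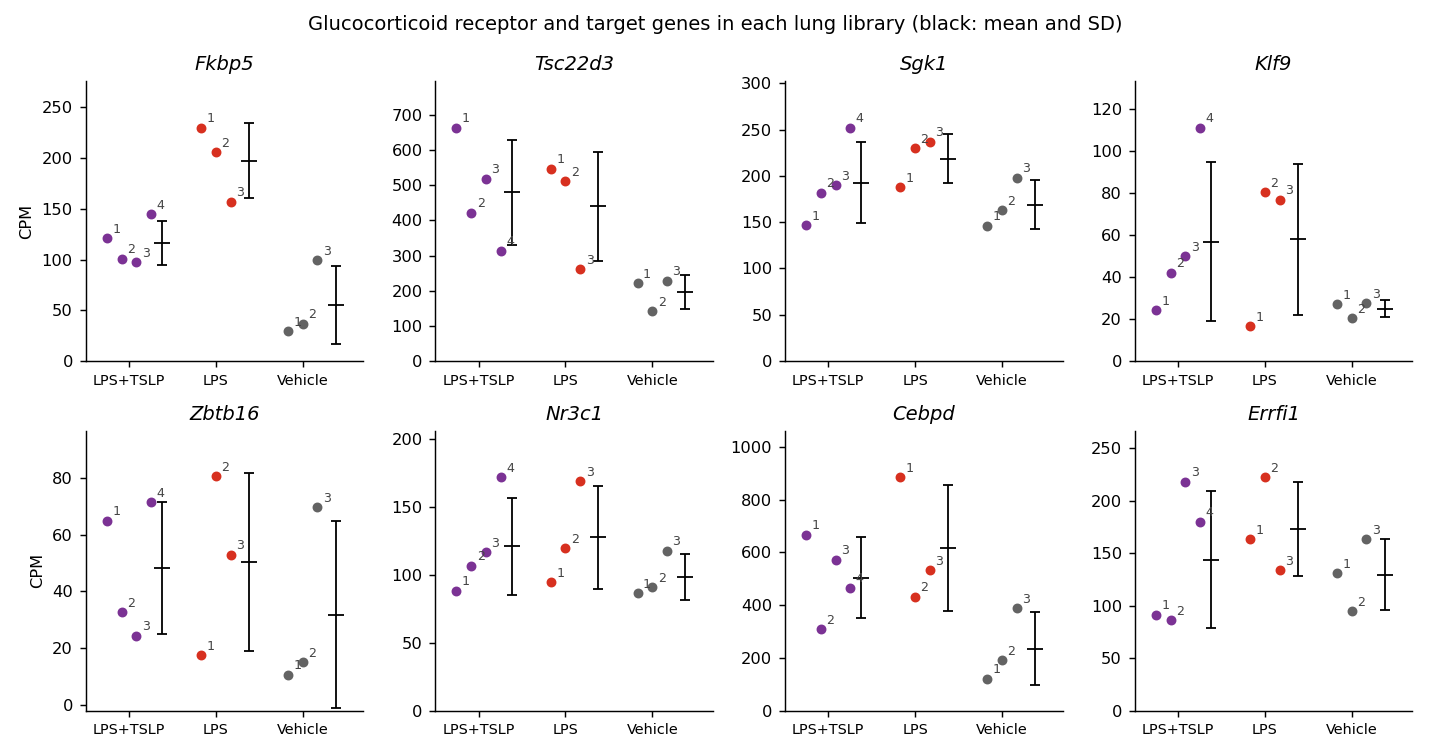
CPM (linear axis) of each of the 8 genes in every library of the LPS+TSLP, LPS and Vehicle groups, with the replicate number beside each point and the group's mean and SD in black. Fkbp5 lay between 97.7 and 145 CPM in LPS+TSLP, between 157 and 230 CPM in LPS and between 29.2 and 99.5 CPM in Vehicle, whereas Klf9 and Zbtb16 spread widely inside groups.

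Nr3c1 encodes the receptor (ENSMUSG00000024431, chromosome 18, 39410545 to 39519421, GRCm38). It had 88.6, 107, 117 and 172 CPM in LPS+TSLP, 94.7, 120 and 169 CPM in LPS, and 86.6, 91.0 and 118 CPM in Vehicle. The 3 groups overlapped, and the highest library of each treated group lay above every Vehicle library. The log2 fold change was 0.38 in LPS against Vehicle (95% interval -0.24 to 0.99, edgeR adjusted p = 0.34) and 0.30 in LPS+TSLP against Vehicle (-0.28 to 0.88, adjusted p = 0.452). Both signs turned when trends with GC content were taken out of the libraries, to -0.20 and -0.24. LPS+TSLP against LPS gave -0.07 (-0.65 to 0.50, adjusted p = 0.961).

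Fkbp5 encodes FKBP51, an immunophilin of the HSP90 complex that lowers the receptor's affinity for hormone and is itself induced by the receptor, a short negative feedback loop (ENSMUSG00000024222, chromosome 17, 28399094 to 28517527). It had 121, 101, 97.7 and 145 CPM in LPS+TSLP, 230, 206 and 157 CPM in LPS, and 29.2, 36.8 and 99.5 CPM in Vehicle. No LPS library was as low as any Vehicle library, and Vehicle replicate 3 lay far above the other Vehicle libraries, inside the range of LPS+TSLP. Fkbp5 rose 3.58-fold in LPS against Vehicle (log2 1.84, SE 0.40, edgeR adjusted p = 0.0101). This call held under all 22 alternative settings, with log2 values from 1.54 to 2.59, the highest without Vehicle replicate 3. LPS+TSLP against Vehicle gave 1.08 (SE 0.38, adjusted p = 0.0762), which passed without Vehicle replicate 3 (1.81, adjusted p = 0.00377). The span of Fkbp5 overlaps 4 other annotated genes, some on the opposite strand, and their part in its counts was not tested.

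Fkbp5 was the sole member of the 8 whose LPS+TSLP libraries all lay on one side of all LPS libraries. The highest LPS+TSLP library had 145 CPM and the lowest LPS library had 157 CPM. Over all genes tested, 3.54% were lower and 3.88% higher in LPS+TSLP with no overlap between these groups. The log2 fold change in LPS+TSLP against LPS was -0.77 (95% interval -1.56 to 0.03), with an unadjusted p = 0.0577 and an edgeR adjusted p = 0.628, so the difference was not called. Over the 22 alternatives it stayed below 0, between -0.96 and -0.63. The 8 neutrophil markers together were also lower in every LPS+TSLP library than in every LPS library. Taken singly, 5 of the 8 markers were lower there without overlap, while Ngp (log2 0.85) and Camp (0.63) had values above 0. The 8 markers summed to 117 to 1080 CPM in LPS+TSLP, 1500 to 1950 CPM in LPS and 371 to 1080 CPM in Vehicle. Their part in the Fkbp5 values was not tested. None of these 8 markers was at 0 in any library and none was called in any of the 3 comparisons.

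Tsc22d3 encodes GILZ, a leucine zipper protein that binds NF-kB and AP-1 and carries part of the anti-inflammatory action of glucocorticoids (ENSMUSG00000031431, chromosome X, 140539528 to 140600659). It had 663, 422, 518 and 314 CPM in LPS+TSLP, 546, 511 and 261 CPM in LPS, and 222, 142 and 228 CPM in Vehicle. Every treated library lay above every Vehicle library, LPS replicate 3 by the least. Over all genes tested, LPS+TSLP lay above Vehicle with no overlap in 15.7% and below it in 15.9%. Tsc22d3 rose 2.43-fold in LPS+TSLP against Vehicle (log2 1.28, SE 0.33, edgeR adjusted p = 0.0282). It rose 2.23-fold in LPS against Vehicle (log2 1.16, SE 0.35, adjusted p = 0.0325). LPS+TSLP against LPS gave 0.12 (95% interval -0.58 to 0.83, adjusted p = 0.944).

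The Tsc22d3 calls were lost in several fits that left out 1 library. In LPS against Vehicle the call was lost without LPS replicate 1 (0.97, edgeR adjusted p = 0.125), LPS replicate 2 (1.03, 0.0888), or Vehicle replicate 1 (1.26, 0.0884), 2 (0.97, 0.14) or 3 (1.28, 0.0584). The call in LPS+TSLP against Vehicle was lost without LPS+TSLP replicate 2 (1.34, 0.0557) or 3 (1.25, 0.0722), or Vehicle replicate 1 (1.38, 0.0994), 2 (1.09, 0.139) or 3 (1.40, 0.0509). In each of these fits the value stayed above 0, and in some it was higher than with all libraries.

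Cebpd encodes C/EBP-delta, a transcription factor induced by glucocorticoids and by interleukin-1, interleukin-6 and LPS (ENSMUSG00000071637, chromosome 16, 15887286 to 15891031). It had 667, 310, 572 and 467 CPM in LPS+TSLP, 884, 432 and 533 CPM in LPS, and 122, 192 and 389 CPM in Vehicle. The lowest LPS library exceeded the highest Vehicle library, while LPS+TSLP replicate 2 lay below Vehicle replicate 3. Cebpd rose 2.63-fold in LPS against Vehicle (log2 1.39, SE 0.44, edgeR adjusted p = 0.0391), and LPS+TSLP against Vehicle gave 1.10 (SE 0.41, adjusted p = 0.0922). LPS+TSLP against LPS gave -0.29 (95% interval -1.17 to 0.59, adjusted p = 0.884). The level of Cebpd is uncertain: it overlaps the gene Spidr on the opposite strand, the strand setting of the counting is not given in the sources used here, and other genes hold a share of 0.137 of its 50-base sequences.

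The rise of Cebpd was lost without LPS replicate 1 (1.04, edgeR adjusted p = 0.154), LPS replicate 3 (1.52, 0.0524), Vehicle replicate 1 (1.10, 0.144), Vehicle replicate 2 (1.27, 0.136) or LPS+TSLP replicate 3 (1.40, 0.0519). Without Vehicle replicate 3 its value was 1.99 in LPS against Vehicle, and 1.69 in LPS+TSLP against Vehicle, which then passed (adjusted p = 0.0284). In the 3 genes that rose after LPS the groups did not overlap, as was so for 24.7% of all genes tested in that direction and 25.1% in the other.

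Sgk1 encodes a kinase that raises sodium uptake through the epithelial channel ENaC and is a classic early target of both corticosteroid receptors (ENSMUSG00000019970, chromosome 10, 21882184 to 21999903). It had 147, 182, 190 and 252 CPM in LPS+TSLP, 188, 230 and 237 CPM in LPS, and 146, 163 and 198 CPM in Vehicle. The groups overlapped, with LPS+TSLP holding the highest library and Vehicle the lowest. The log2 fold change was 0.37 in LPS against Vehicle (95% interval -0.13 to 0.87, edgeR adjusted p = 0.247), 0.19 in LPS+TSLP against Vehicle (-0.27 to 0.66, adjusted p = 0.561) and -0.18 in LPS+TSLP against LPS (-0.64 to 0.29, adjusted p = 0.856).

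RefSeq start-site windows (250 bases before to 50 after a start, GRCm38.p6) were matched for 5 of the 8 genes, 13 windows in all: Errfi1, Sgk1, Fkbp5, Klf9 and Tsc22d3. They were searched on both strands for the glucocorticoid response element (AGAACA and TGTTCT with 3 free bases between them), its looser form (GNACA and TGTNC, spaced alike), its single arm TGTTCT, the E-box CACGTG and the cyclic AMP element TGACGTCA. The full element occurred in 1 of the 13 windows, at one annotated start of Sgk1, and in 3 of the 32851 windows of all genes (0.00913%). The looser form occurred in the same Sgk1 window and in 0.475% of all windows. The single arm was found in 4 of the 13 windows, all of Sgk1 or Tsc22d3, and in 19.0% of all windows. The E-box occurred in 2 of the 13 (Fkbp5 and Sgk1) and in 7.15% of all, and the cyclic AMP element in 1 (Errfi1) and in 1.79% of all. The window of Sgk1 with the full element, that of Tsc22d3 with a single arm and that of Fkbp5 are shown as the window with the full element and windows of both genes among the 5 that were called after LPS. Whether the response of Sgk1 differs from theirs was not tested. Capitals mark every match to these motifs, and in Sgk1 the E-box at -246 overlaps a single arm at -242, while the full element starts at -189.
Sgk1, chr10:21993640-21993939, plus strand: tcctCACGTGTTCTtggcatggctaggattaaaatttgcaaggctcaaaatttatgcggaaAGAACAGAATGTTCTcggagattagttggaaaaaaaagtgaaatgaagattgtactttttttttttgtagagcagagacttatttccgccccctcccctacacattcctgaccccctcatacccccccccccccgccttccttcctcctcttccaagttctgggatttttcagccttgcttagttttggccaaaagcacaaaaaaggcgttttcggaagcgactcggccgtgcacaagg
Tsc22d3, chrX:140600473-140600772, minus strand: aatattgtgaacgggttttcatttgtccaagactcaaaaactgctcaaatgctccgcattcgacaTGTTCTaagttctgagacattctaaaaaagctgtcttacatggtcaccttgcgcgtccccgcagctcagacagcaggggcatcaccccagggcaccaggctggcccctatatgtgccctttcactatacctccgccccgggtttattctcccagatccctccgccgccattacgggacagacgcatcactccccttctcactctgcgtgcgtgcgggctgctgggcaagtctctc
Fkbp5, chr17:28486100-28486399, minus strand: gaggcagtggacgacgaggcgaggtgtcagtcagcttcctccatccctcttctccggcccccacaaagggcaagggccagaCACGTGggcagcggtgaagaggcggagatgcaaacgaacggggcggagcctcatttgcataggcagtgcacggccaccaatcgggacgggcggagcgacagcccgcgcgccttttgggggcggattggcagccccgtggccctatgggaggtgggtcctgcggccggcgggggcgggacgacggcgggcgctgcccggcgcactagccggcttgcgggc
A match is a string of letters in a short window and is not evidence of receptor binding there, and these windows leave out distant elements.

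Errfi1 encodes MIG6, an inhibitor of the epidermal growth factor receptor (ENSMUSG00000028967, chromosome 4, 150853919 to 150868892). It had 91.5, 86.1, 218 and 180 CPM in LPS+TSLP, 163, 222 and 134 CPM in LPS, and 131, 94.9 and 163 CPM in Vehicle. LPS+TSLP replicates 1 and 2 lay below every other library, and replicate 3 was close to the highest LPS library. The log2 fold change was 0.41 in LPS against Vehicle (95% interval -0.40 to 1.22, edgeR adjusted p = 0.428), 0.15 in LPS+TSLP against Vehicle (-0.61 to 0.91, adjusted p = 0.795) and -0.26 in LPS+TSLP against LPS (-1.02 to 0.49, adjusted p = 0.876). An antisense gene overlaps it, which could change its count if strand was not used.

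Klf9 encodes a zinc finger repressor that is induced by glucocorticoids in many tissues and also cycles with the circadian clock (ENSMUSG00000033863, chromosome 19, 23141226 to 23168134). It had 24.2, 42.1, 49.8 and 111 CPM in LPS+TSLP, 16.6, 80.4 and 76.8 CPM in LPS, and 27.0, 20.5 and 27.4 CPM in Vehicle. The Vehicle libraries were close together, whereas each treated group held 1 library below the top of Vehicle (LPS+TSLP replicate 1 and LPS replicate 1) and the others above it. The log2 fold change was 1.21 in LPS against Vehicle (95% interval -0.07 to 2.50, edgeR adjusted p = 0.145) and 1.18 in LPS+TSLP against Vehicle (-0.04 to 2.41, adjusted p = 0.164). Without LPS replicate 1, LPS against Vehicle passed (1.65, adjusted p = 0.0422). Without that library and LPS+TSLP replicate 1 together, the values were 1.67 (adjusted p = 0.0148) in LPS against Vehicle and 1.45 (adjusted p = 0.0191) in LPS+TSLP against Vehicle. LPS+TSLP against LPS gave -0.03 (-1.21 to 1.15, adjusted p = 0.994), a sign that turned under 6 of 22 alternatives.

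Zbtb16 encodes PLZF, a transcriptional repressor that is among the most strongly glucocorticoid-induced genes in several human cell types and that also marks innate-like T cells (ENSMUSG00000066687, chromosome 9, 48654297 to 48836222). It had 64.8, 32.7, 24.5 and 71.4 CPM in LPS+TSLP, 17.7, 80.4 and 52.9 CPM in LPS, and 10.8, 15.1 and 69.7 CPM in Vehicle. The groups overlapped widely, and Vehicle replicate 3 lay above 2 of the 3 LPS libraries. The log2 fold change was 0.66 in LPS against Vehicle (95% interval -0.89 to 2.21, edgeR adjusted p = 0.519) and 0.60 in LPS+TSLP against Vehicle (-0.87 to 2.06, adjusted p = 0.565). Without Vehicle replicate 3 these were 1.95 (adjusted p = 0.0481) and 1.90 (adjusted p = 0.0626). LPS+TSLP against LPS gave -0.06 (-1.50 to 1.38, adjusted p = 0.99), so changes of more than 2-fold in either direction lay inside the interval.

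**Figure D2:**
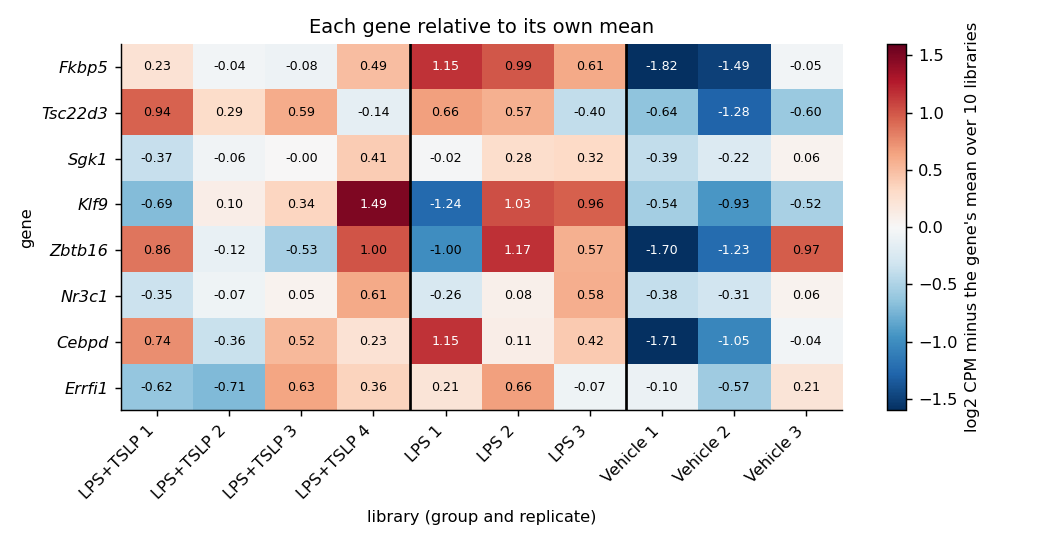
log2 CPM of each gene minus its own mean over the 10 libraries (colour and printed value), with genes in rows and the LPS+TSLP, LPS and Vehicle libraries in columns. Vehicle replicates 1 and 2 were the lowest 2 libraries for Fkbp5, Zbtb16 and Cebpd (for example -1.82 and -1.49 for Fkbp5), whereas Vehicle replicate 3 was at -0.05 for Fkbp5 and 0.97 for Zbtb16.

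Single libraries differed from the rest of their group in several of these genes at once. Vehicle replicate 3 was the highest Vehicle library in all 8 genes. In LPS replicate 1, Fkbp5 (230 CPM) and Cebpd (884 CPM) were at their highest of the 10 libraries while Klf9 (16.6 CPM) was at its lowest. LPS+TSLP replicate 4 had the highest Sgk1, Klf9 and Nr3c1 of all libraries and the lowest Tsc22d3 of its group. Whether the neutrophil share, the mitochondrial share or the sex-linked RNA given above has a part in these patterns was not tested.

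Levels between genes were compared as mean CPM per kilobase of exon. The order in LPS+TSLP was Cebpd (135 ± 40.8), Tsc22d3 (110.0 ± 34.2), Errfi1 (40.2 ± 18.3), Sgk1 (39.4 ± 8.89), Nr3c1 (15.8 ± 4.67), Fkbp5 (12.3 ± 2.32), Klf9 (11.8 ± 7.81) and Zbtb16 (9.16 ± 4.39; SD, n = 4). In LPS, Cebpd (164 ± 63.4) and Tsc22d3 (101 ± 35.7) stood highest, followed by Errfi1 (48.3 ± 12.5), Sgk1 (44.6 ± 5.44), Fkbp5 (20.9 ± 3.9), Nr3c1 (16.6 ± 4.92), Klf9 (12.0 ± 7.44) and Zbtb16 (9.52 ± 5.95; SD, n = 3). In Vehicle, Cebpd (62.6 ± 37.0) and Tsc22d3 (45.4 ± 11) were again above Errfi1 (36.2 ± 9.48), Sgk1 (34.4 ± 5.44) and Nr3c1 (12.8 ± 2.18), and Fkbp5 (5.83 ± 4.08) lay between Zbtb16 (6.04 ± 6.22) and Klf9 (5.18 ± 0.804). Sgk1 lay above the next gene by more than either SD in all 3 groups, as did Tsc22d3 in LPS+TSLP and LPS and Nr3c1 in Vehicle, and the other neighbours lay within the larger of their SDs.

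**Figure D3:**
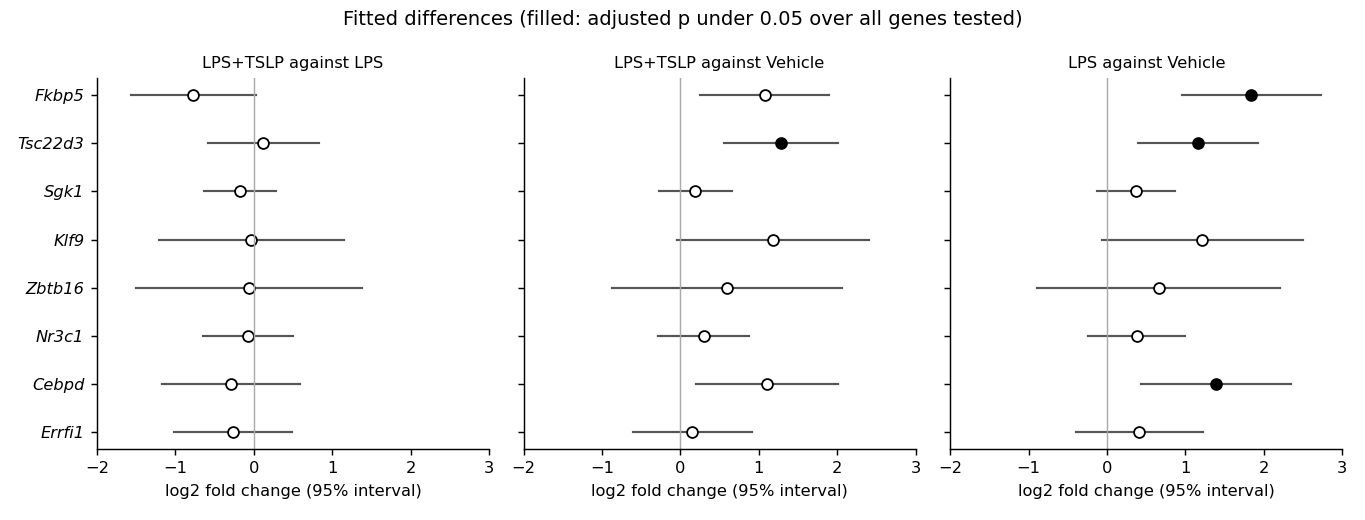
Fitted log2 fold changes of the 8 genes with 95% intervals for LPS+TSLP against LPS, LPS+TSLP against Vehicle and LPS against Vehicle, where filled points passed the adjusted threshold. Fkbp5, Tsc22d3 and Cebpd passed in LPS against Vehicle (1.84, 1.16 and 1.39) and Tsc22d3 in LPS+TSLP against Vehicle (1.28), and no interval in LPS+TSLP against LPS left out 0.

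The absence of calls in LPS+TSLP against LPS held for the whole table. By edgeR 0 of 17139 genes passed, while 1388 had an unadjusted p under 0.05, of which none was among the 8. The DESeq2 Wald test called 22 genes higher and 13 lower, none of the 8, and limma-voom called 0. Without LPS replicate 3 edgeR called 1 gene, which was none of the 8. The 95% intervals of the 8 genes ran from -0.64 to 0.29 for Sgk1, the narrowest, to -1.50 to 1.38 for Zbtb16, the widest.

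The machinery around the receptor was examined as a list of 19 genes (a second corticosteroid receptor, hormone-converting enzymes, chaperones, coregulators and transporters), all of which were tested. In LPS against Vehicle 1 rose, 2 fell and 16 did not pass, beside 14.2% of all genes tested that rose and 10.7% that fell, so the counts were no higher than the background. The median log2 fold change was -0.16, against 0.01 over all genes. Hsp90aa1, the inducible chaperone that holds the receptor ready for hormone, rose 3.14-fold (log2 1.65, SE 0.36, edgeR adjusted p = 0.0101). It had 372, 341, 279 and 433 CPM in LPS+TSLP, 385, 349 and 541 CPM in LPS, and 74.0, 115 and 217 CPM in Vehicle, so no treated library reached down to Vehicle. Its constitutive partner Hsp90ab1, named after its values were seen, gave -0.06 (SE 0.25, adjusted p = 0.882).

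The genes of the machinery that fell after LPS were the coactivator Ncoa1 (log2 -0.85, SE 0.20, edgeR adjusted p = 0.0134) and the mineralocorticoid receptor Nr3c2 (-1.07, SE 0.35, adjusted p = 0.0455). Ncoa1 had 35.5, 33.7, 31.5 and 47.0 CPM in LPS+TSLP, 27.4, 37.1 and 38.3 CPM in LPS, and 64.0, 62.7 and 59.1 CPM in Vehicle, so every treated library lay below every Vehicle library. The call of Nr3c2 was lost under 11 of 22 alternatives, among them the removal of any of 6 single libraries, with values from -1.23 to -0.82. Ncoa1 and Hsp90aa1 kept their calls under all 22. The cochaperone Ptges3 gave 0.81 (adjusted p = 0.0513) and Stip1, which links HSP70 to HSP90, gave 0.55 (adjusted p = 0.0759).

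The same list in LPS+TSLP against Vehicle had 1 gene risen, 1 fallen and 17 not passing, beside 8.82% and 5.35% of all genes tested, with a median of -0.13. Hsp90aa1 rose (1.40, SE 0.34, edgeR adjusted p = 0.0236), and Ncoa1 fell (-0.75, SE 0.19, adjusted p = 0.0253). Both lost the call without Vehicle replicate 1 (1.09 and -0.73), Vehicle replicate 2 (1.27 and -0.75) or LPS+TSLP replicate 2 (1.42 and -0.70). Ncoa1 also lost it without LPS+TSLP replicate 3 (-0.67) and with the GC trend removed (-0.59). None of the 19 was called in LPS+TSLP against LPS. The drug efflux pump gene Abcb1b gave -0.86 (adjusted p = 0.589). Stip1, with -0.44 (edgeR adjusted p = 0.61), was the sole gene of the list whose groups did not overlap there. Of all genes tested, 3.54% were lower and 3.88% higher without overlap in that comparison, so this was near the background.

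Enzymes that set local hormone levels, named after their values were seen, were not called. Hsd11b1, which regenerates active glucocorticoid, had 75.3, 234, 160 and 217 CPM in LPS+TSLP, 168, 189 and 127 CPM in LPS, and 233, 211 and 193 CPM in Vehicle. Its log2 fold change was -0.40 in LPS against Vehicle (edgeR adjusted p = 0.419). Hsd11b2, which inactivates the hormone, had 7.86 ± 0.221 CPM in LPS and 3.63 ± 1.26 CPM in Vehicle (SD, n = 3 each; log2 1.11, adjusted p = 0.14). The adrenal enzyme Cyp11b1, which makes corticosterone, had 0 counts in all 10 libraries, which allows up to 0.0172 CPM over them together, for counting error only. Of the 5 adrenal markers examined it was the sole one at 0 in all libraries. Star had 2.56 to 5.76 CPM, while Cyp11a1, Hsd3b1 and Mc2r were at 0 in at least 1 library.

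A further list held 23 other genes known to be induced by glucocorticoids, of which 22 were tested. In LPS against Vehicle 4 rose, none fell and 18 did not pass, beside 14.2% of all genes tested that rose and 10.7% that fell, so the count was near the background. The median log2 fold change was 0.39, against 0.01 over all genes. The genes that rose were Nfkbia, the inhibitor of NF-kB (log2 1.95, SE 0.31, edgeR adjusted p = 0.00316), Tnfaip3, the deubiquitinase A20 (2.01, SE 0.48, adjusted p = 0.0137), the metal-binding Mt1 (2.28, SE 0.58, adjusted p = 0.0177) and the cell cycle inhibitor Cdkn1a (1.66, SE 0.47, adjusted p = 0.0255). Each of these is also induced by inflammation or stress through other pathways: Nfkbia and Tnfaip3 are NF-kB targets, Mt1 responds to zinc and interleukin-6, and Cdkn1a to p53.

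Nfkbia had 342, 377, 552 and 353 CPM in LPS+TSLP, 791, 491 and 682 CPM in LPS, and 119, 152 and 237 CPM in Vehicle. It kept its call after LPS under all 22 alternatives. The other 3 lost theirs in some fits that left out a library: Cdkn1a without LPS replicate 1 or 2 or Vehicle replicate 1 or 2 (1.29 to 1.55), Tnfaip3 without Vehicle replicate 1 or 2 (1.75 and 1.84), and Mt1 without LPS replicate 1 or Vehicle replicate 2 (1.80 and 2.35). In LPS against Vehicle the clock gene Per1 gave 0.21 (edgeR adjusted p = 0.661) and the phosphatase Dusp1 gave -0.10 (adjusted p = 0.853). Both were named after their values were seen, and 16 of the 22 tested genes of the list had values above 0. Next to the threshold, Cd163, a scavenger receptor of macrophages, gave -2.20 (adjusted p = 0.0531), and Irs2, an adaptor of insulin signalling, gave -0.78 (adjusted p = 0.0645). The LPS libraries of both lay below all Vehicle libraries. The decoy receptor Il1r2, named after its values were seen, gave 2.31 (edgeR adjusted p = 0.0656), and its LPS libraries lay above all Vehicle libraries. Among the 22 genes, 9 were higher and 2 lower without overlap, beside 24.7% and 25.1% of all genes tested.

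Of the 22 genes 1 rose in LPS+TSLP against Vehicle, none fell and 21 did not pass, beside 8.82% of all genes tested that rose, with a median of 0.58. That gene was Nfkbia (1.26, SE 0.29, edgeR adjusted p = 0.0193), which lost the call without LPS+TSLP replicate 3 (1.08), Vehicle replicate 1 (1.06) or Vehicle replicate 2 (1.18). None of the 22 was called in LPS+TSLP against LPS, with a median of -0.10. Nfkbia gave -0.69 (adjusted p = 0.599), Tnfaip3 -0.98 (adjusted p = 0.609) and the decoy receptor Il1r2 -1.39 (adjusted p = 0.675), and Rgs2, a brake on G protein signalling, gave 0.63 (adjusted p = 0.589). Il1r2 is also a neutrophil gene, and like the summed neutrophil markers it was lower in every LPS+TSLP library than in every LPS library. Bcl6 (log2 -0.23) was likewise lower without overlap, and Rgs2 was higher without overlap. Such a lack of overlap was found in 3.54% (lower) and 3.88% (higher) of all genes tested. The part of neutrophils in these values was not tested.

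**Figure D4:**
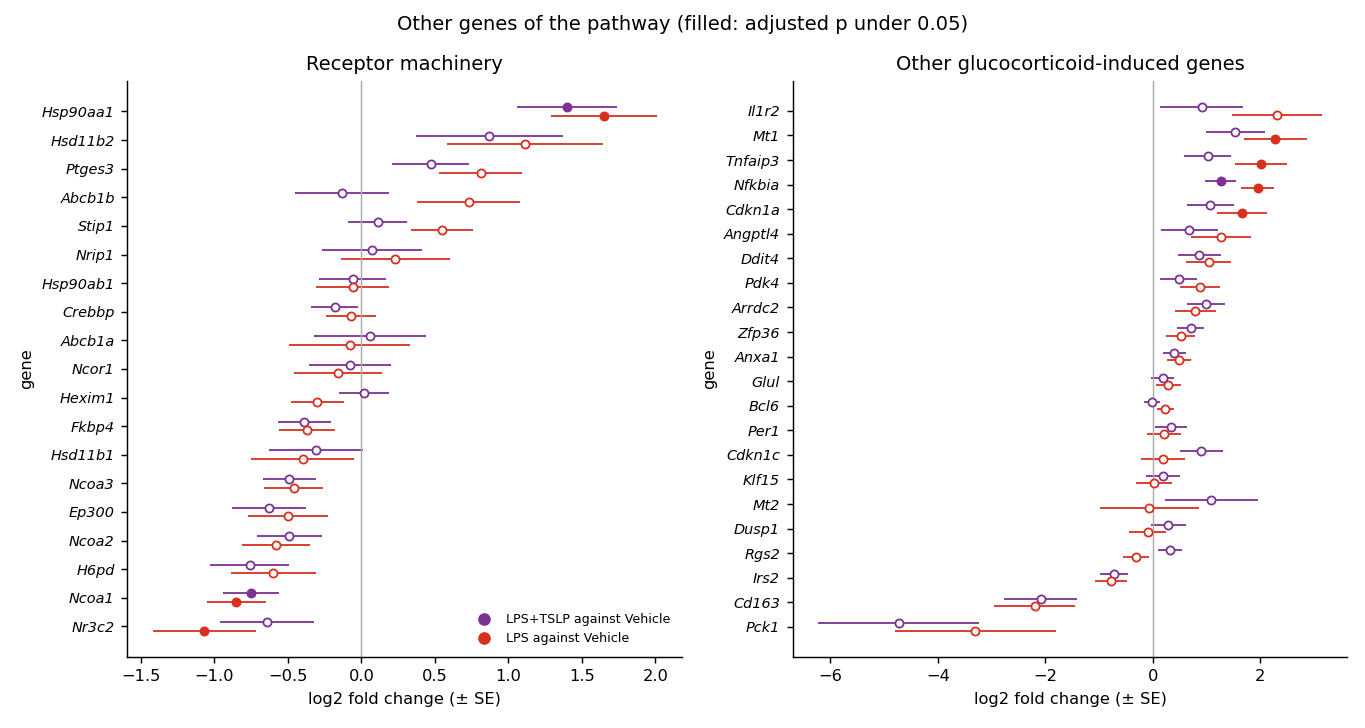
Log2 fold changes with SE of 19 genes of the receptor machinery (left) and 22 other glucocorticoid-induced genes (right) in LPS+TSLP against Vehicle (purple) and LPS against Vehicle (red), where filled points passed the adjusted threshold. In LPS against Vehicle the left panel has Hsp90aa1 at the top (1.65) and Nr3c2 at the bottom (-1.07), and the right panel has filled points for Mt1, Tnfaip3, Nfkbia and Cdkn1a.

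The genes whose pattern was most like that of a member were found by the root-mean-square difference of centred log2 CPM over the 10 libraries, among protein-coding genes. For Fkbp5 they were Cdkn1a (0.25), Eif3j1 (0.261) and Zbtb6 (0.315). For Cebpd they were Bcl2l1 (0.266), its family member Cebpb (0.267) and Enkur (0.272). For Tsc22d3 they were Arl4a (0.176), Ppm1k (0.234) and Lsm7 (0.247), and for Klf9 Zfp882 (0.297), Hgf (0.329) and Rsbn1 (0.342). Zbtb16 had no close match, its nearest being Prokr1 (0.525). The nearest matches of the other 3 genes were Npepps for Sgk1 (0.0768), Fndc3a for Nr3c1 (0.0998) and Rhob for Errfi1 (0.253). Among the 8 themselves the closest pairs were Nr3c1 with Sgk1 (0.147), Errfi1 with Sgk1 (0.382) and Cebpd with Fkbp5 (0.425), and the farthest was Cebpd with Klf9 (1.11). The differences were not scaled to how much each gene varied, so genes that varied little tend to have small ones. Sgk1 ran from -0.39 to 0.41 around its mean, and Zbtb16 from -1.7 to 1.17.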

How the data were processed

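RNA-seq read counts per gene for 10 lung libraries were used as deposited by the authors. The submitters' processing notes name CASAVA, HISAT2, HTSeq 0.6.0 and the build GRCm38/mm10, and the annotation release and strand setting are not given in the sources used here. Symbols that had become dates (27) were restored by identifier, and 99.93% of identifiers were in GENCODE M21, which gave positions, exon lengths and GC content. Genes were filtered with filterByExpr (17139 kept), scaled by TMM and tested with edgeR 4.0.16 (robust quasi-likelihood, 3 groups, 7 residual degrees of freedom) in R 4.3.3, which was also tested on simulated data. SE is the log2 fold change divided by the square root of F. CPM of marker lists use the total counts, and log2 CPM a prior count of 2. Chi-square comparisons of counts found no duplicated library. Alternatives used DESeq2 1.42.0, limma 3.58.1 and loess offsets (span 0.3). One gene of the receptor machinery list is not reported here. The 8 genes and all lists were chosen with earlier results of these data known. The text names all 8 genes, up to 6 genes per list and comparison with the smallest adjusted p, and up to 3 most similar genes for each of the 8.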

Additional observations from a re-analysis of the deposited data

How the results depend on the processing

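Over 22 alternatives, the 8 genes in 3 comparisons gave 528 values, of which 482 kept their direction and their side of the threshold, 17 lost a call, 9 gained one and 20 changed sign. The number of the 8 genes called higher in LPS against Vehicle was 3, and 1 to 3 when 1 library was left out. For LPS+TSLP against Vehicle it was 1, and 0 to 2 when 1 library was left out, 2 by limma-voom, 3 by the DESeq2 Wald test and 2 with the first replicates of LPS and of LPS+TSLP both left out. The number was 0 for LPS+TSLP against LPS, and for genes called lower in any comparison, under every alternative run. The cause of these shifts was not tested, beside the smaller number of libraries in fits that left some out.

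All changes of sign were in values that were not called. Those in LPS+TSLP against LPS were Tsc22d3 (-0.09 without LPS+TSLP replicate 1, -0.15 without LPS replicate 3), Klf9 (0.06 by limma-voom, and up to 0.28 without 1 library: 0.19, 0.09, 0.03 without LPS+TSLP replicates 1 to 3, 0.28 and 0.21 without LPS replicates 2 and 3), Zbtb16 (0.05 by limma-voom, 0.09 and 0.16 without LPS+TSLP replicates 2 and 3, 0.45 without LPS replicate 2), Nr3c1 (0.03 without LPS+TSLP replicate 1, 0.16 without LPS replicate 3) and Cebpd (0.09 without LPS replicate 1). Leaving out 1 library gave ranges of -0.15 to 0.34 for Tsc22d3, -0.55 to 0.28 for Klf9, -0.45 to 0.45 for Zbtb16, -0.27 to 0.16 for Nr3c1 and -0.49 to 0.09 for Cebpd. With the GC trend removed Nr3c1 was at -0.20 in LPS against Vehicle and -0.24 in LPS+TSLP against Vehicle. Errfi1 in LPS+TSLP against Vehicle was at -0.04 with the replicate block, -0.12 without LPS+TSLP replicate 3 and -0.05 without Vehicle replicate 2, with a range of -0.12 to 0.34 when 1 library was left out.

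Deviations from group means were correlated at -0.34 to 0.40 between libraries of the same number, above 0.1 in 3 of 9 pairs. A library was closest to its own number in 7 of 18 checks. The labels give only a replicate number, and these correlations cannot show whether samples of the same number belong together. With the replicate number as a block the count of the 8 genes called was 1 for LPS+TSLP against Vehicle, 3 for LPS against Vehicle and 0 between the treated groups. Over all alternatives, calls among the 19 machinery genes ran from 2 to 6 in LPS against Vehicle and from 0 to 5 in LPS+TSLP against Vehicle. Among the 22 other induced genes they ran from 1 to 7 and from 0 to 8. Over all genes, LPS against Vehicle had 2437 higher and 1836 lower, against 1558 and 964 without LPS replicate 1, 1021 and 640 without Vehicle replicate 1, and 1012 and 824 without Vehicle replicate 2. LPS+TSLP against Vehicle had 1511 and 917, against 782 and 541 with the GC trend removed, 2296 and 1629 by DESeq2, 2333 and 1509 with both first treated replicates left out, 833 and 205 without LPS+TSLP replicate 2, 833 and 181 without LPS+TSLP replicate 3, 435 and 81 without Vehicle replicate 1, and 404 and 117 without Vehicle replicate 2.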

Other observations

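Relatives of the 8 genes by family were examined as a list of 13, of which 12 were tested, and the C/EBP factors differed among themselves. In LPS against Vehicle 2 rose, 1 fell and 9 did not pass, beside 14.2% of all genes tested that rose and 10.7% that fell, so the counts were near the background. The median log2 fold change was -0.03. Cebpb, a partner of Cebpd in the acute phase response, rose 2.80-fold (log2 1.49, SE 0.39, edgeR adjusted p = 0.0194), and Cebpg, a C/EBP that lacks an activation domain, rose 2.65-fold (1.41, SE 0.22, adjusted p = 0.00308). Cebpa, which drives myeloid and alveolar epithelial differentiation, fell (-1.26, SE 0.20, adjusted p = 0.00319). It had 113, 91.5, 101 and 104 CPM in LPS+TSLP, 96.1, 92.1 and 75.0 CPM in LPS, and 262, 198 and 172 CPM in Vehicle. No treated library reached the lowest Vehicle library.

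Between LPS+TSLP and Vehicle, Cebpg rose (1.14, SE 0.21, edgeR adjusted p = 0.00799), Cebpa fell (-1.04, SE 0.19, adjusted p = 0.00699) and 10 of the 12 did not pass. Beside them, 8.82% of all genes tested rose and 5.35% fell, so these counts were near the background. Cebpa kept its calls under all 22 alternatives in both comparisons. Cebpg lost its call in LPS+TSLP against Vehicle without Vehicle replicate 2 (adjusted p = 0.0545). Cebpb lost its call after LPS without LPS replicate 1, Vehicle replicate 1 or Vehicle replicate 2, with values from 1.08 to 1.94 over the alternatives. The 7 markers of alveolar type 2 cells, which express Cebpa, summed to 3750 to 23500 CPM in LPS+TSLP, 6640 to 14500 CPM in LPS and 17400 to 26900 CPM in Vehicle. LPS+TSLP thus overlapped Vehicle in this sum, whereas every LPS library lay below every Vehicle library. Within these 7 markers 1 gene rose in LPS against Vehicle (Lamp3, log2 2.61, edgeR adjusted p = 0.0082), 2 fell and 4 did not pass. The part of these cells in the Cebpa values was not tested. None of the 12 was called in LPS+TSLP against LPS. The Tsc22d3 relative Tsc22d1 gave 0.66 there (adjusted p = 0.591) with overlapping groups.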
